A study of Mus musculus with 10 samples.

Results

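The genes described here are 10 markers of endothelium, the cell layer that lines blood vessels, namely *Pecam1*, *Cdh5*, *Kdr*, *Flt1*, *Tek*, *Tie1*, *Emcn*, *Cldn5*, *Esam* and *Egfl7*. They were taken by name from the gene symbols of GENCODE mouse release M21 (GRCm38), and all 10 were among the 18381 genes of the count table. All 10 also passed the filter on low counts and were among the 14504 genes tested. First lower molars of wild type C57BL/6JOlaHsd embryos at embryonic day 14 were cultured as hanging drops for 6 h. From each of 5 embryos, numbered 1, 2, 3, 4 and 6, the tooth of one side received mouse recombinant IGF1 (insulin-like growth factor 1), 750 ng in each ml of medium. The tooth of the other side received the same volume of the vehicle alone, phosphate-buffered saline with bovine serum albumin, and serves as its control. Each tooth was sequenced as its own RNA library, so that there are 5 IGF1 and 5 control teeth paired by embryo. The explants were whole tooth germs cut off from the circulation, and the vessels they still held were not sorted or isolated.

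The cap-stage tooth germ is an epithelium over a condensed mesenchyme, and capillaries reach it through the surrounding mesenchyme. Endothelial cells respond to vascular endothelial growth factor (VEGF) through the receptor tyrosine kinases KDR and FLT1, of which KDR carries most of the growth signal and FLT1 binds the ligand tightly but signals weakly. A different receptor pair, TEK and TIE1, answers to the angiopoietins, of which ANGPT1 stabilizes vessels and ANGPT2 mostly opposes it. The cells are held to each other by VE-cadherin, PECAM1, claudin 5 and ESAM, the products of *Cdh5*, *Pecam1*, *Cldn5* and *Esam*. Endomucin (*Emcn*) is a sialomucin of the capillary and venous surface, and *Egfl7* encodes a protein that endothelial cells secrete into the vessel matrix.

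Values are CPM, the counts of a gene relative to the total of its library, with that total scaled by the trimmed mean of M-values (TMM) over the genes tested. The control libraries held 2845773 to 8403151 counts and the IGF1 libraries 3456634 to 8763113, and the smallest library of each group came from embryo 1. The markers were counted from 27 times (*Cldn5*, in its poorest tooth) to 1287 times (*Cdh5*, in its richest), so that *Cldn5* is the least precisely measured of them. Genes were tested with the quasi-likelihood test of edgeR, with embryo as a block, and called changed where the p-value, adjusted by Benjamini-Hochberg over all genes tested, was below 0.05. By this rule 11.5% of all genes tested changed with IGF1, 4.76% being lower and 6.72% higher.

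Among the 10 markers, *Cdh5* and *Esam* were lower with IGF1 and the other 8 did not pass the test. Against the 4.76% of all genes that were lower, these are 2 of 10, which is few genes to read against that share. The median log2 fold change of the 10 markers was -0.22, while that of all genes tested was 0.00, and the estimate lay below 0 for 8 of the markers against 50.6% of all genes. *Flt1* and *Egfl7* had estimates above 0. In each of the 10 markers the values of the 5 IGF1 teeth overlapped those of the 5 control teeth, whereas in 7.25% of all genes tested the groups did not overlap. A fall in endothelial RNA in a whole tooth can come from fewer endothelial cells or from less of the RNA in each, and these cannot be told apart here.

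**Figure D1:**
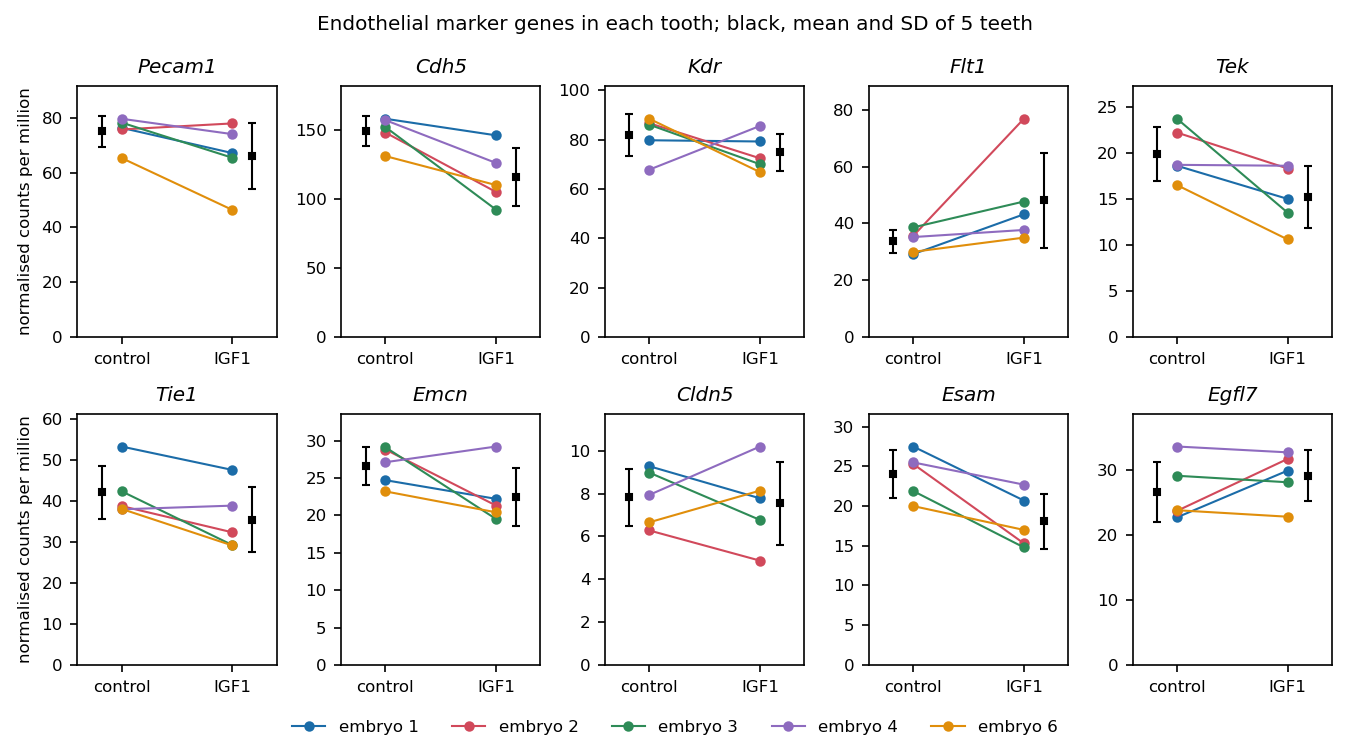
Level of each of the 10 endothelial marker genes (normalised CPM, axes from 0) in every control and IGF1 tooth, with a line joining both teeth of an embryo and black squares with bars for the mean and SD of 5 teeth. *Cdh5*, *Tek* and *Esam* are lower with IGF1 in all 5 embryos (*Tek* only barely in embryo 4) and *Flt1* is higher in all 5, while the groups overlap in every panel.

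The junction genes held the markers that passed the test. *Cdh5* (ENSMUSG00000031871, chromosome 8, 104101625 to 104144511, plus strand) encodes the cadherin of the endothelial adherens junction. In the control teeth of embryos 1, 2, 3, 4 and 6 it had 158, 148, 152, 157 and 131 CPM, and in their IGF1 teeth 146, 105, 92.2, 126 and 110 CPM. It was lower in all 5 embryos, and 4 of the IGF1 teeth lay below the lowest control tooth. The mean moved from 149 ± 10.7 to 116 ± 20.9 CPM (SD, n = 5 each), and *Cdh5* fell by 23.4% (log2 fold change -0.38, SE 0.09, adjusted p = 0.0188). The pairing mattered to this call, since edgeR's test without the block gave an adjusted p of 0.0797, and the call was also lost without embryo 2 (0.0537) or embryo 4 (0.0545).

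*Esam* (ENSMUSG00000001946, chromosome 9, 37528078 to 37538319, plus strand) encodes an immunoglobulin-like adhesion molecule of endothelial tight junctions. Its control teeth had 27.5, 25.3, 21.9, 25.5 and 20 CPM in the order of the embryos, and its IGF1 teeth 20.7, 15.3, 14.8, 22.7 and 17.0 CPM. All 5 embryos were lower with IGF1, and 3 of the IGF1 teeth lay below every control tooth. *Esam* fell by 25.2% (log2 fold change -0.42, SE 0.12, adjusted p = 0.0406). This call is close to the threshold. Leaving out any single embryo ended it (adjusted p from 0.0593 to 0.137), as did the fit without the block (0.126) and DESeq2's Wald test with Benjamini-Hochberg adjustment (0.103).

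The other junction markers did not pass. *Pecam1* (ENSMUSG00000020717, chromosome 11, 106654217 to 106750628, minus strand), an adhesion molecule that blood platelets and leukocytes also carry, had 76.3, 75.7, 78.2, 79.6 and 65.3 CPM in the control teeth and 67.1, 77.9, 65.4, 74.0 and 46.4 CPM with IGF1. Embryo 2 went the other way from the remaining 4, and the log2 fold change was -0.20 (SE 0.09, 95% interval -0.38 to -0.01, adjusted p = 0.171). The unadjusted interval thus ends just below 0, and without embryo 6 the estimate was -0.128. *Cldn5* (ENSMUSG00000041378, chromosome 16, 18776847 to 18778262, plus strand), the main claudin of endothelial tight junctions, ran from 6.28 to 9.28 CPM in the control teeth and from 4.87 to 10.2 CPM with IGF1. It was lower in 3 embryos and higher in embryos 4 and 6, with a log2 fold change of -0.06 (SE 0.19, 95% interval -0.47 to 0.34, adjusted p = 0.868). That interval is the widest of the 10 markers and covers falls as large as that of *Esam*. Without embryo 2 or without embryo 3 the estimate was just above 0.

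**Figure D2:**
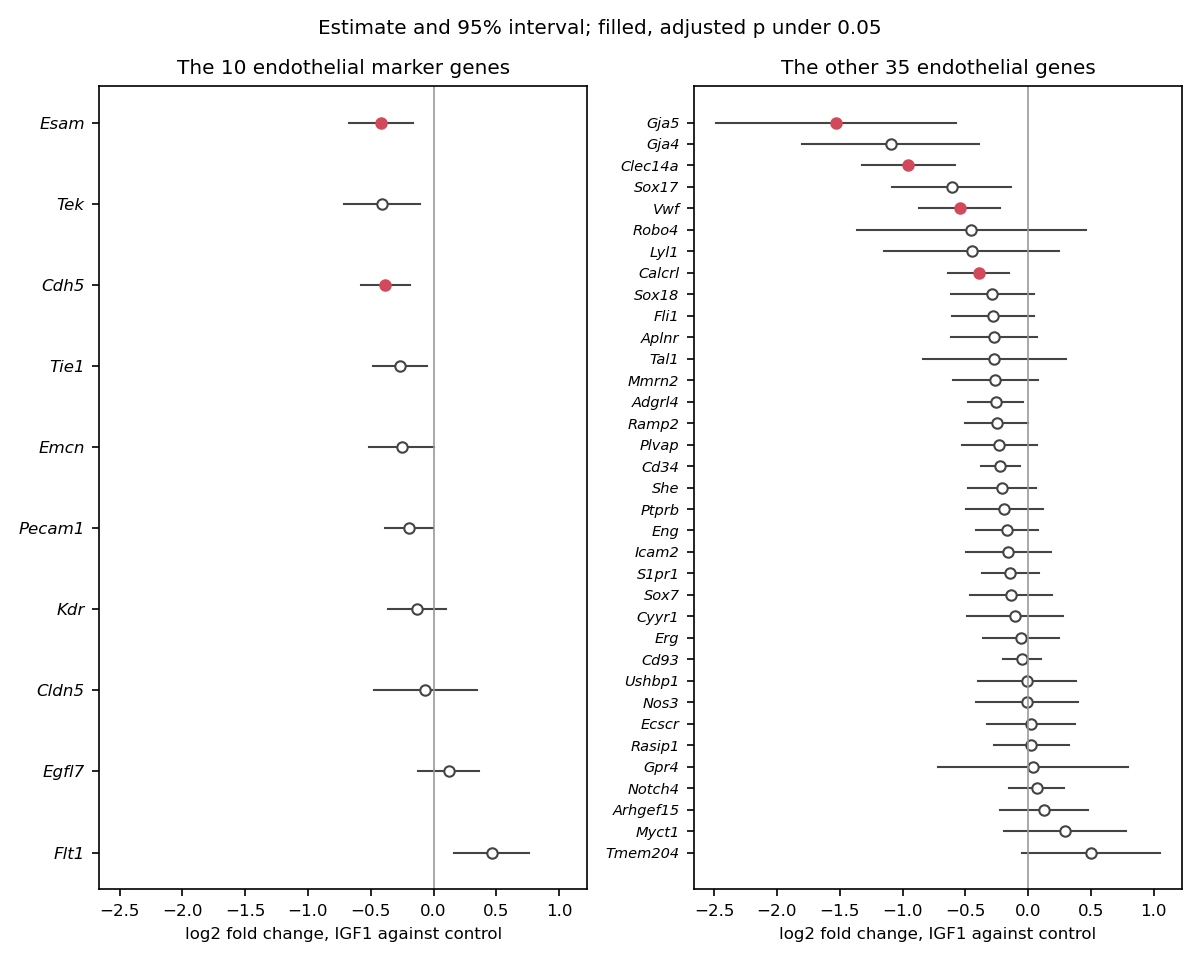
Log2 fold change of IGF1 against control with its 95% interval, for the 10 endothelial marker genes on the left and for 35 other genes known from endothelium on the right; filled points passed the adjusted p-value of 0.05. *Cdh5* and *Esam* are filled on the left and *Clec14a*, *Vwf*, *Calcrl* and *Gja5* on the right, all below 0, and *Flt1* has the highest estimate on the left.

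The estimates of the VEGF receptors lay on either side of 0, and neither passed the test. *Kdr* (ENSMUSG00000062960, minus strand of chromosome 5, 75932827 to 75978458) had 79.7, 86.6, 86.0, 67.8 and 88.4 CPM in the control teeth and 79.2, 72.4, 70.0, 85.5 and 66.8 CPM with IGF1. It was lower in 4 embryos and higher in embryo 4, and its log2 fold change was -0.13 (SE 0.10, 95% interval -0.36 to 0.10, adjusted p = 0.469). Leaving out single embryos gave from -0.25 (without embryo 4) to -0.066 (without embryo 6). *Flt1* (ENSMUSG00000029648, minus strand of chromosome 5, 147561604 to 147726011) had 29.2, 35.6, 38.6, 35.2 and 30.0 CPM in the control teeth and 43.2, 76.8, 47.7, 37.7 and 35 CPM with IGF1. Every embryo was higher with IGF1, and 3 of the IGF1 teeth lay above every control tooth, that of embryo 2 by far the most. The log2 fold change was 0.46 (SE 0.14, 95% interval 0.16 to 0.76) and the adjusted p of 0.0506 just missed the threshold. *Flt1* was called by DESeq2's Wald test (Benjamini-Hochberg adjusted p = 0.0379), by limma-voom (0.0470), with at least 10 counts in every sample (0.0313) and after thinning (0.0493), but without embryo 2 its log2 fold change was 0.28. Its estimate was above 0 in every alternative tried.

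The ratio of *Kdr* to *Flt1* within a tooth, picked out after its values had been seen and given without a test, was 2.73, 2.43, 2.23, 1.93 and 2.95 in the control teeth and 1.83, 0.943, 1.47, 2.27 and 1.91 with IGF1. It was lower in 4 of 5 embryos, and only in embryo 4 was it higher. Its mean change was -0.59 ± 0.57 on the log2 scale (SD, n = 5), about as large as the spread between embryos.

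The stretches before the starts of these receptor genes are shown because the estimate of *Flt1* lay above 0 and those of *Kdr* and *Tek* below it. They are the 250 bases upstream of the gene start in RefSeq (GRCm38.p6), 5′ to 3′ on the gene's own strand, at chr5:147726012-147726261 for *Flt1*, chr5:75978456-75978705 for *Kdr* and chr4:94739039-94739288 for *Tek*. Capitals mark AGGAAG or its reverse complement CTTCCT, a form of the site that ETS factors bind. ETS factors such as ERG and FLI1 are known regulators of many endothelial genes.

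Flt1: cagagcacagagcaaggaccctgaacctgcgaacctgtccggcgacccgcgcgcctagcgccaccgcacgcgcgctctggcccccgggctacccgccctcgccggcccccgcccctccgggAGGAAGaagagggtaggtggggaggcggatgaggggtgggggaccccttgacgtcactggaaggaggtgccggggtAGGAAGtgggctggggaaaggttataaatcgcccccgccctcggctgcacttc

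Kdr: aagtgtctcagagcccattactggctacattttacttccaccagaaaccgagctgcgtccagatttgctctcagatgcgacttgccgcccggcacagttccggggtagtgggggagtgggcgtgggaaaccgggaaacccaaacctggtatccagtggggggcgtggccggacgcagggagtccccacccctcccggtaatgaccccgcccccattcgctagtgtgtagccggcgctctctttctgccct

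Tek: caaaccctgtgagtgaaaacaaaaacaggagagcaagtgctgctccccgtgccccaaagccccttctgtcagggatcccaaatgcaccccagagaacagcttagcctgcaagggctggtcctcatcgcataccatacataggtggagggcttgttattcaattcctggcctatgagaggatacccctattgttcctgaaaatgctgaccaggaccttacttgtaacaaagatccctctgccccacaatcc

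The *Flt1* stretch held AGGAAG at 129 and 53 bases before the start, and those of *Kdr* and *Tek* held no match to it. Other forms of the ETS site were not searched for. The stretch of *Tie1* held 1 match, 219 bases before the start, that of *Emcn* held 2, at 174 and 93 bases, and that of *Cldn5* held none. Of 3 stretches of *Egfl7*, the first held 3 matches, the second held 1 and the last held none. Matches were thus found in markers with estimates on both sides of 0. The RefSeq table gave 9 such stretches for 7 of the markers (*Kdr*, *Flt1*, *Tek*, *Tie1*, *Emcn*, *Cldn5* and *Egfl7*), and 5 stretches of 4 markers held AGGAAG on either strand. Among all 32851 stretches of that length, 29.5% held it. The core of the hypoxia response element, ACGTG or its reverse complement CACGT, was in 0 of the 9 marker stretches and in 16.6% of all stretches. These are matches of letters in a short window and not measured sites.

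The angiopoietin receptors both had estimates below 0 without passing the test. *Tek* (ENSMUSG00000006386, chromosome 4, 94739289 to 94874976, plus strand), also known as Tie2, had 18.6, 22.2, 23.7, 18.7 and 16.5 CPM in the control teeth and 15.0, 18.3, 13.5, 18.6 and 10.6 CPM with IGF1. All 5 embryos had the lower value with IGF1, but in embryo 4 the difference was only from 18.7 to 18.6 CPM. Its log2 fold change was -0.41 (SE 0.14, adjusted p = 0.0814), which is as large as that of *Esam*, with a wider error. *Tie1* (ENSMUSG00000033191, chromosome 4, 118471191 to 118490061, minus strand) is an orphan relative that pairs with TEK. It ran from 37.9 to 53.2 CPM in the control teeth and from 29.1 to 47.5 CPM with IGF1, was lower in 4 embryos and had a log2 fold change of -0.26 (SE 0.10, adjusted p = 0.106). The ratio of *Tek* to *Tie1* was lower with IGF1 in 5 of 5 embryos, with a mean change of -0.15 ± 0.12 on the log2 scale (SD, n = 5). This ratio was also picked out after its values had been seen and is given without a test.

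*Emcn* and *Egfl7* did not pass either. *Emcn* (ENSMUSG00000054690, chromosome 3, 137341067 to 137432185, plus strand) had 24.7, 28.8, 29.1, 27.1 and 23.2 CPM in the control teeth and 22.2, 21.3, 19.5, 29.2 and 20.4 CPM with IGF1. Of the IGF1 teeth 4 lay below every control tooth and that of embryo 4 lay above every control tooth, with a log2 fold change of -0.25 (SE 0.12, 95% interval -0.51 to 0.00, adjusted p = 0.197). *Egfl7* (ENSMUSG00000026921, chromosome 2, 26580014 to 26593120, plus strand) ran from 22.7 to 33.6 CPM in the control teeth and from 22.8 to 32.7 CPM with IGF1. It was higher in embryos 1 and 2 and within 0.06 log2 units of 0 in the other 3, and its log2 fold change was 0.12 (SE 0.11, 95% interval -0.12 to 0.36, adjusted p = 0.53). The estimate was 0.041 without embryo 2 and 0.07 without embryo 1. The span of *Egfl7* overlaps *Agpat2* on the minus strand and the gene *Gm20532* on the plus strand, both of which are in the count table, and strand use is not given in the sources used here, so its counts may hold reads of these genes.

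Over all alternatives, *Cdh5* was called in 10 of 13, *Esam* in 6 and *Flt1* in 4, and none of the other 7 markers was called in any. *Cdh5*, *Tek* and *Esam* were lower in all 5 embryos, which 11.2% of all genes tested were, and *Flt1* was higher in all 5, as were 13% of all genes. By embryo, the number of the 10 markers below 0 was 8, 7, 9, 5 and 8, and the median log2 ratio was -0.16, -0.26, -0.46, 0.01 and -0.24. Embryo 3 had the lowest values and embryo 4 showed no lean to either side. *Flt1* had the highest ratio of all markers in embryos 1, 2 and 3, and *Cldn5* in embryos 4 and 6.

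To set the levels of different markers side by side, CPM were divided by the length of merged exons in kb. In the control teeth *Cdh5* was the most abundant, at 35.5 ± 2.54 CPM per kb (SD, n = 5). *Pecam1* followed at 12 ± 0.91, and its lowest tooth (10.5) lay above the highest of *Kdr* but below the highest of *Tie1* (10.8). *Kdr* (9.05 ± 0.94), *Tie1* (8.55 ± 1.33), *Esam* (8.38 ± 1.06) and *Egfl7* (7.42 ± 1.30) came next, and each neighbour in this order overlapped the other. *Cldn5* (5.53 ± 0.95), *Emcn* (4.91 ± 0.47) and *Tek* (4.23 ± 0.63) overlapped likewise, and the highest tooth of *Cldn5* (6.55) lay above the lowest of *Egfl7* (6.33). *Flt1* was lowest at 2.50 ± 0.30 CPM per kb, with all its control teeth below those of *Tek*. *Flt1* has the longest merged exon model of the markers (13504 bases), which joins long and short isoforms, so its level per kb depends on that model. With IGF1 *Flt1* stood at 3.56 ± 1.24 and *Tek* at 3.23 ± 0.72 CPM per kb, and *Cdh5* remained highest at 27.6 ± 4.97.

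The presence of vessels in these teeth was checked with 35 other genes known from endothelium. All 35 were in the table and all passed the filter. Their summed level was 705 to 877 CPM in the control teeth and 589 to 751 CPM in the IGF1 teeth, beside 443 to 510 and 367 to 479 CPM for the 10 markers, and the groups overlapped in both lists. Of 6 genes known from lymphatic vessels, *Lyve1* was at 0 to 0.993 CPM and *Ccl21a* at 0 to 0.714 CPM, and neither passed the filter on low counts. In the control teeth *Flt4* had 17.7 to 23.0, *Prox1* 7.21 to 19.7, *Reln* 5.84 to 9.22 and *Pdpn* 26.8 to 42.7 CPM. Of the 4 lymphatic genes tested, *Pdpn* fell (from 34.3 ± 6.6 to 22.4 ± 5.23 CPM, SD, n = 5 each, edgeR adjusted p = 0.00375) and *Prox1*, *Flt4* and *Reln* did not pass, which is few genes to read against the 4.76% of all genes that fell. *Prox1*, *Pdpn* and *Reln* are also known from other tissues, and *Flt4* from blood vessel endothelium that is sprouting.

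Of the 35 other endothelial genes, 4 fell (*Clec14a*, *Vwf*, *Calcrl* and *Gja5*) and 31 did not pass the test. The share called was thus 11.4%, beside 11.5% of all genes tested, or beside 4.76% of all genes where only falls are counted. The median log2 fold change of the 35 was -0.21, and 28 of them had estimates below 0. *Clec14a* encodes a C-type lectin of the endothelial surface. It had 31.6, 48.1, 43.0, 46.9 and 36.5 CPM in the control teeth and 23.6, 13.7, 20.3, 27.9 and 23.8 CPM with IGF1. Here the groups did not overlap, and *Clec14a* fell by 48.4% (log2 fold change -0.95, SE 0.17, adjusted p = 0.00465). Of the 4, it was the only one that kept its call in all 13 alternatives. *Gja5*, the connexin of arterial endothelium, had the lowest estimate of the 4, going from 9.90 ± 3.83 to 3.74 ± 2.55 CPM (SD, n = 5 each; log2 fold change -1.53, SE 0.43, adjusted p = 0.0438). *Gja5* was higher with IGF1 in embryo 4 alone, at 4.52 against 3.69 CPM. *Gja4*, another arterial connexin, had a log2 fold change of -1.09 with an adjusted p of 0.0502, and was called in 7 of the 13 alternatives, among them DESeq2's Wald test and limma-voom. *Vwf*, the clotting factor carrier stored in endothelium, fell by 31.5% (adjusted p = 0.0346), and *Calcrl*, the adrenomedullin receptor, fell by 24.0% (adjusted p = 0.0396). Of the fits without a single embryo, *Vwf* kept its call only in that without embryo 6, *Calcrl* only in that without embryo 3 and *Gja5* only in that without embryo 4. Without the block the adjusted p was 0.0881 for *Vwf*, 0.207 for *Calcrl* and 0.091 for *Gja5*. DESeq2's Wald test with Benjamini-Hochberg adjustment did not call *Vwf* (0.107) or *Gja5* (0.0733), and without the filter on low counts *Gja5* was not called either (0.0523).

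Among the ligands of these receptors there were changes in both directions. Of 11 ligands, co-receptors and related factors tested, *Vegfa* and *Apln* rose, *Angpt2* fell and 8 did not pass, beside 6.72% of all genes tested that rose and 4.76% that fell. *Vegfa* had 135, 121, 108, 123 and 100 CPM in the control teeth and 212, 568, 341, 201 and 157 CPM with IGF1. All IGF1 teeth lay above all control teeth, and the log2 fold change was 1.19 (SE 0.21, adjusted p = 0.0049). *Angpt2*, the angiopoietin made largely by endothelial cells themselves, had 12.4, 11.8, 14.1, 21.6 and 9.69 CPM in the control teeth and 7.49, 8.32, 3.79, 8.75 and 4.14 CPM with IGF1. It fell by 54.5% with no overlap between the groups (log2 fold change -1.14, SE 0.20, adjusted p = 0.00488). *Apln*, the apelin ligand, rose from 2.07 ± 0.98 to 7.65 ± 4.0 CPM (SD, n = 5 each; log2 fold change 1.82, SE 0.27, adjusted p = 0.00203). The calls of *Vegfa* and *Angpt2* held in all 13 alternatives, and that of *Apln* in the 12 that tested it.

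*Angpt1*, made mainly by mesenchyme and mural cells, did not pass the test (log2 fold change -0.09, SE 0.12, 95% interval -0.34 to 0.17). The ratio of *Angpt1* to *Angpt2* was 2.03, 5.02, 3.07, 2.01 and 3.83 in the control teeth and 4.58, 5.71, 11.8, 4.89 and 6.59 with IGF1. It was higher in 5 of 5 embryos, by 1.07 ± 0.65 on the log2 scale (SD, n = 5), again a ratio picked out after its values had been seen and given without a test. The remaining VEGF family members did not pass, with log2 fold changes of 0.11 for *Vegfb*, -0.08 for *Vegfc*, -0.56 for *Vegfd* and -0.41 for *Pgf*. The co-receptors *Nrp1* and *Nrp2* had -0.15 and -0.22, also without passing, although *Nrp2* was called without embryo 2 (edgeR adjusted p = 0.0451). Over fits without an embryo, the estimate ran from -0.179 to -0.001 for *Angpt1*, from 0.057 to 0.158 for *Vegfb* and from -0.216 to -0.087 for *Nrp1*.

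**Figure D3:**
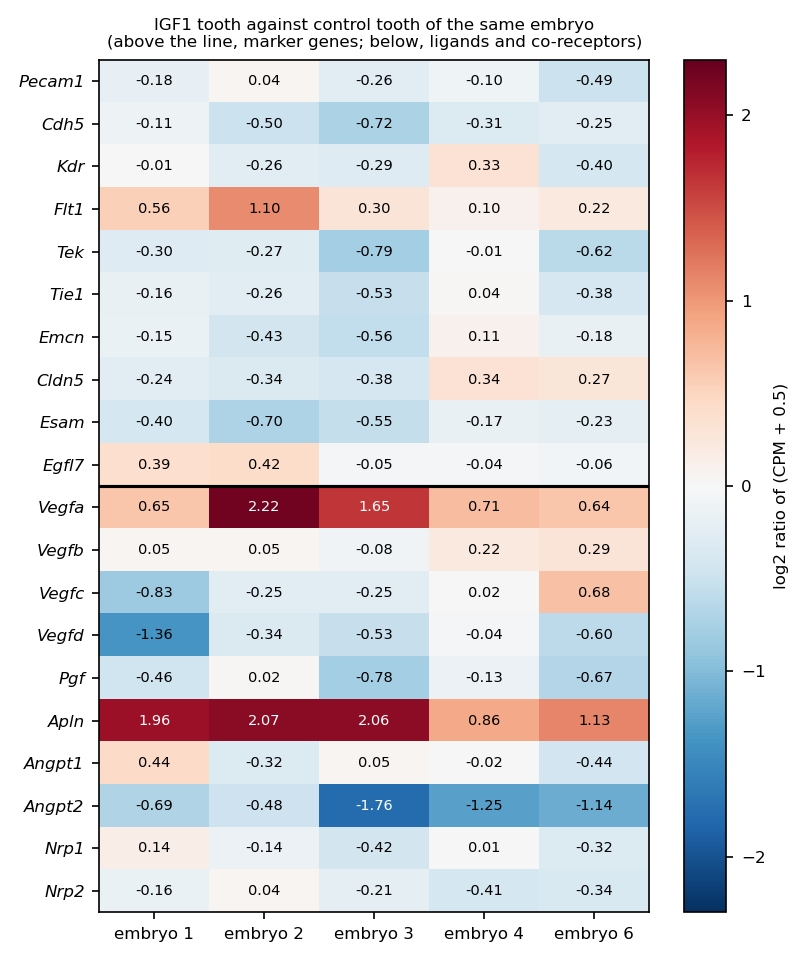
Log2 ratio of the IGF1 tooth to the control tooth of the same embryo, from CPM with 0.5 added, for the 10 endothelial marker genes (above the line) and for ligands and co-receptors (below it); red is higher with IGF1 and blue lower. *Vegfa* and *Apln* are red and *Angpt2* is blue in all 5 embryos, and embryo 2 has the highest ratio for both *Vegfa* and *Flt1*.

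Side by side, the log2 ratios of *Vegfa* in embryos 1, 2, 3, 4 and 6 were 0.65, 2.22, 1.65, 0.71 and 0.64, and those of *Flt1* were 0.56, 1.10, 0.30, 0.10 and 0.22. Embryo 2 was highest for both genes, whereas embryo 3 was next for *Vegfa* and embryo 1 was next for *Flt1*.

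Genes known from sprouting tip cells changed in both directions. Of 12 tested, *Kcne3*, *Esm1* and *Apln* rose, *Angpt2* fell and 8 did not pass, against the same 6.72% and 4.76% of all genes. *Apln* and *Angpt2* are counted among the ligands as well. *Kcne3*, a potassium channel subunit, had 1.42 to 3.44 CPM in the control teeth and 11.2 to 19.7 CPM with IGF1 (log2 fold change 2.58, SE 0.24, adjusted p = 9.64e-05). *Esm1*, a proteoglycan that VEGF induces in endothelium, had 1.28 to 2.88 CPM in the control teeth and 3.81 to 6.43 CPM with IGF1 (log2 fold change 1.26, SE 0.28, adjusted p = 0.0146). The groups did not overlap for either gene, and the call of *Esm1* was lost without embryo 2 (0.0528) or embryo 4 (0.0546). *Dll4*, the Notch ligand of tip cells, had a log2 fold change of 0.29 (SE 0.13, adjusted p = 0.198). *Flt4*, the receptor for VEGF-C, was higher in 5 of 5 embryos with 0.31 (SE 0.10, adjusted p = 0.0662), without passing. *Kcne3*, *Apln* and the other genes named here are also made by cells outside the endothelium, and the cells of origin were not separated.

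Other cell types were measured in the same libraries. Red blood cell genes were lower, with 6 of 8 tested genes falling (*Hba-a1*, *Hba-a2*, *Hbb-bs*, *Hbb-bt*, *Hbb-y* and *Hba-x*), beside 4.76% of all genes tested, and a median log2 fold change of -0.54. Their summed level ran from 866 to 1449 CPM in the control teeth and from 615 to 1124 CPM with IGF1. Near-identical copies among these genes may share reads, which was not measured, so the 6 are not counted as separate observations. In each embryo the summed red blood cell level was lower with IGF1, and in the order of the embryos its log2 ratio was -0.20, -0.18, -0.84, -0.60 and -0.49. That of the summed 10 endothelial markers was -0.06, -0.11, -0.40, -0.04 and -0.27, with embryo 3 lowest in both lists. *Cdh5*, the most abundant marker and 1 of the 2 called, weighs most in the marker sum. By gene, the median log2 ratio of the 10 markers in embryo 4 was 0.01. Of 10 macrophage genes tested, *Csf1r* fell and 9 did not pass, which is near the 11.5% of all genes that changed. In the pericyte and mural list *Cspg4* and *Notch3* rose, *Pdgfrb* fell and 8 of 11 did not pass, with a summed level of 672 to 855 CPM in the control teeth and 667 to 881 CPM with IGF1. The dental epithelial list had *Krt5* higher, *Shh* lower and 6 of 8 not past the test. The 3 of 11 mural and 2 of 8 epithelial genes called are likewise few genes to read against that 11.5%, and 0 of 8 dental mesenchymal genes passed edgeR's test, with 2 of them at an unadjusted p under 0.05 and 0 passing by DESeq2 or limma-voom. Without the block, of the genes named in this account of other cell types, only *Hbb-y* and *Shh* kept their calls. Single embryos mattered to *Hba-a2* and *Csf1r* (lost without embryo 3, 4 or 6), *Pdgfrb* (without 1, 4 or 6), *Cspg4* (without 1, 2, 4 or 6) and *Krt5* (without 6). *Csf1r* was also not called by DESeq2's Wald test (Benjamini-Hochberg adjusted p = 0.064), nor were *Cspg4* (0.0538) and *Hba-a2* (0.0554) without the filter on low counts. The part of the blood content and of the shares of other cells in the endothelial values was not tested.

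**Figure D4:**
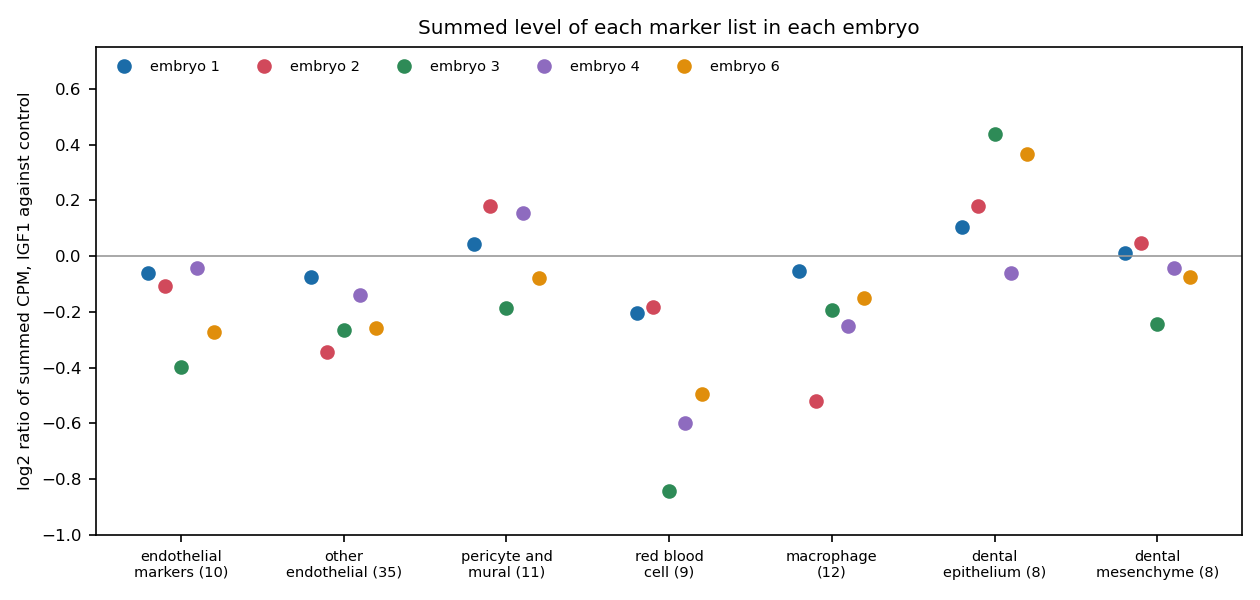
Log2 ratio of the summed CPM of each marker list, IGF1 against control tooth of the same embryo, with 1 point for each of 5 embryos and the number of genes summed in brackets. As sums, both endothelial lists, the red blood cell list and the macrophage list lie below 0 in all 5 embryos. The dental epithelial sum lies above 0 in 4. A sum is weighted towards its most abundant genes. Medians over genes differed in sign for the 10 markers in embryo 4 (0.01) and the macrophage list in embryo 6 (0.02). The dental epithelial median was -0.24 in embryo 2. For the 35 other endothelial genes and the red blood cell list the median was below 0 in every embryo.

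The markers were also compared with each other across the 10 teeth, after the mean of each treatment group had been taken away. These correlations are over 10 teeth, which share an embryo in pairs, and all values of a tooth share its library and depth, so they are given as a description. *Tek*, *Emcn* and *Pecam1* followed the mean of the other 9 markers most closely, with r of 0.76, 0.75 and 0.72. *Cldn5* (0.15) and *Flt1* (-0.04) did so least. The mean of the markers was highest in the IGF1 tooth of embryo 4 and lowest in both teeth of embryo 6 among their groups. Of 14494 other genes with a mean of at least 1 CPM, the 10 most like the marker mean were *Pkdcc* (r = 0.94), *Rab3il1*, *Nthl1*, *Gm5067*, *Caln1*, *St6galnac6*, *Des*, *Col3a1*, *Gm6089* and *Phf19* (0.92). *Des* is in the pericyte and mural list and *Col3a1* in the dental mesenchymal list, and none is in the list of 35 other endothelial genes, whose median r was 0.44. The median r was 0.69 for 8 red blood cell genes, -0.62 for 8 dental epithelial genes and 0.00 for all genes compared.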

How the data were processed

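Molars of 5 mouse embryos were measured by RNA sequencing, 1 tooth with IGF1 and 1 with vehicle from each. The authors deposited estimated counts per gene, not normalized and already whole numbers, so rounding changed none. The submitters' processing notes name GRCm38, FastQC 0.11.8, Trimmomatic 0.39, Salmon 0.99.0 and DESeq2; the transcript set is not given in the sources used here. Rows have at least 10 counts over all samples. Of 18381 identifiers, 18287 are in GENCODE M21, from which symbols, positions and merged exon lengths were read.

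Counts were filtered with filterByExpr, scaled by TMM and tested with edgeR 4.0.16 (glmQLFit, glmQLFTest) with embryo as a block, adjusting over all 14504 genes. Pairing comes from the labels, in which the teeth of a pair share an embryo. Within pairs, deviations from the group means correlated at -0.0389 to 0.319, against a median of -0.0463 between embryos (from -0.194 to 0.232), so the ranges overlapped. Samples of a group differed beyond sampling noise (chi-square per degree of freedom 4.52 to 18.2), so each counted as 1 sample. The standard error is the estimate over the root of F, with 95% intervals from the total degrees of freedom, not adjusted for the number of genes. Log2 ratios by embryo used CPM plus 0.5. Alternatives were DESeq2 1.42.0 (size factors, Wald test), limma-voom 3.58.1, library totals, other filters, no block, thinning and leaving out each embryo. The procedure was also run on counts simulated with edgeR's own fitted dispersions and with changes larger than those of the markers. That run therefore does not bear on the marker calls. R 4.3.3 and Python 3.11.15 were used.

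Named are all 10 markers, every gene of the other lists past the threshold, 9 VEGF, angiopoietin and neuropilin genes, and the 10 genes most like the markers. *Gja4*, *Dll4*, *Flt4*, *Lyve1*, *Ccl21a*, *Prox1* and *Reln*, and the receptor ratios, were picked out after their values were seen. The markers and lists were chosen with earlier results of these data known.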

Additional observations from a re-analysis of the deposited data

Results flagged for a closer look

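Of 78 groups of 5 teeth examined for 39 named genes, 6 held a tooth far from the other 4, where chance gives about 3.9. The ratio given is the gap to the nearest tooth over the whole range of the group. Among the endothelial markers these were the control tooth of embryo 6 for *Pecam1* (65.3 CPM against 75.7 to 79.6, ratio 0.728), the control tooth of embryo 1 for *Tie1* (53.2 against 37.9 to 42.3, ratio 0.713) and the IGF1 tooth of embryo 4 for *Emcn* (29.2 against 19.5 to 22.2, ratio 0.726). Outside the markers, both teeth of embryo 1 stood apart for *Notch3*, the control tooth at 230 CPM against 127 to 157 (ratio 0.711) and the IGF1 tooth at 252 against 191 to 209 (ratio 0.71). For *Shh*, 30.0 CPM in the IGF1 tooth of embryo 6 lay above the 7.49 to 13.5 CPM of the remaining IGF1 teeth (ratio 0.731).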

How the results depend on the processing

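Without the replicate block, which ignores that both teeth of a pair share an embryo, 887 genes changed in place of 1666, 0 of the 10 endothelial markers in place of 2, and 1 of the 35 other endothelial genes (*Clec14a*) in place of 4. At an unadjusted p under 0.05 the edgeR fit without the block held 4 markers, and with the block DESeq2 called 2 and limma-voom 3. Leaving out each embryo gave from 986 to 1602 changed genes, 0 or 1 markers (0 without embryo 2 or 4, otherwise *Cdh5*), and from 1 to 3 of the other endothelial genes. The remaining settings gave counts of all genes, markers and other endothelial genes within 1.5 times those reported. The log2 fold change of *Cldn5* ran from -0.183 to 0.03 over fits without an embryo, being above 0 without embryo 2 (0.007) or 3 (0.03). That of *Vegfc* ran from -0.284 to 0.033, being above 0 without embryo 1, and neither gene was called. Over 39 named genes, 439 of 504 values kept their direction and side of the threshold, 57 lost the call, 5 gained it and 3 changed sign. Scaling by library totals moved the median of all genes to -0.02. Fits without an embryo have fewer samples, and what else moved these values was not tested. Depth limits *Cldn5* most among the markers (27 to 76 counts) and, among the other genes called, *Apln* (3 to 117), *Esm1* (5 to 56) and *Gja5* (7 to 94), which the filter of at least 10 counts in every sample left out.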
